A study of Homo sapiens with 9 samples.

Results

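GPX1 and GPX4 are 2 of the 20046 genes that the array names, and all 4 probes annotated to them, 2 for each gene, were followed array by array. The members were taken by gene symbol, with no threshold on a measured value. RNA came from the Ramos line, established from a human Burkitt's lymphoma and of B cell origin, after 48 h with HDL NPs at 40 nM, with human HDL at 40 nM, or with PBS as the control. HDL NPs are synthetic particles that carry phospholipids and apolipoprotein A-I on a gold core and bind the same receptor, SCARB1, as the cholesterol-rich human HDL. Each condition had 3 arrays, which the study describes as biological replicates, and 9 Illumina HT-12 arrays were deposited in all. All values come from 1 cell line, 1 dose and 1 time point. The study used the arrays to screen for RNA changes that might account for the death of cells given HDL NPs, with PBS and human HDL as controls. It describes the cells as dependent on cholesterol uptake.

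Glutathione peroxidases reduce peroxides with electrons from glutathione. GPX1 encodes the abundant cytosolic enzyme, which acts mainly on hydrogen peroxide and small soluble hydroperoxides. GPX4 encodes the enzyme that reduces phospholipid hydroperoxides within membranes, and loss of its activity permits the iron-dependent form of cell death known as ferroptosis. Both proteins hold selenocysteine in the active site, which is inserted at a UGA codon with the help of a hairpin in the 3′ end of the messenger RNA.

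Because RNA of both genes was lower after HDL NP treatment, the bases just upstream of each start in RefSeq (GRCh38.p14) are shown for comparison, 5′ to 3′ on the strand of the gene. GPX1 has 1 annotated start and GPX4 has 3, of which the first is printed. Capitals mark matches, on either strand, to the GC box GGGCGG, the CCAAT box CCAAT and the E-box CACGTG.
GPX1, chr3:49358354-49358603, minus strand: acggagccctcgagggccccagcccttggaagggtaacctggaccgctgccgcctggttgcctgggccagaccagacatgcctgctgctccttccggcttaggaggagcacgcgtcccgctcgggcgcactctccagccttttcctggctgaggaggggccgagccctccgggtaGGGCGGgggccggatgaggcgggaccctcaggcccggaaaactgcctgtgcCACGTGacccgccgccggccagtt
GPX4, chr19:1103744-1103993, plus strand: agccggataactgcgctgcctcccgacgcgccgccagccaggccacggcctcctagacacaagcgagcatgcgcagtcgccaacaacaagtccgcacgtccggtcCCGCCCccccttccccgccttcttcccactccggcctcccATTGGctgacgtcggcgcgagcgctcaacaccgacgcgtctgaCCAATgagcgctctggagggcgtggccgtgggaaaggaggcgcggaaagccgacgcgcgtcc
The GPX1 window held 1 GC box, 70 bases before the start, and 1 E-box, 19 bases before it, and no CCAAT box. The GPX4 window held 1 GC box, 140 bases before the start, and 2 CCAAT boxes, 101 and 58 bases before it, and no E-box. Over 35116 windows of 250 bases upstream of annotated starts, 42.6% held the GC box, 32% the CCAAT box and 6.34% the E-box, and no 2 of these motifs overlap in the windows printed. Both windows were rich in G and C, with 70.8% for GPX1 and 69.6% for GPX4, against a median of 58% over all windows. The only motif that the windows shared was thus the most frequent of the 3, and a match describes letters and not a site in use.

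GPX1 RNA fell after HDL NP treatment on every array relative to every PBS and human HDL array. The deposited intensity of its brighter probe, ILMN_1749662, was 536, 588 and 481 on PBS replicates 1 to 3. With human HDL it was 477, 506 and 476. With HDL NPs it was 280.0, 257 and 244. The lowest control array was thus well above the highest HDL NP array, while PBS and human HDL overlapped. These intensities are the mean brightness of the beads in arbitrary units before background correction or normalization. The mean was 535 ± 53.1 (SD, n = 3) with PBS, 486 ± 17.1 (SD, n = 3) with human HDL and 260.4 ± 18.1 (SD, n = 3) with HDL NPs, so the PBS mean was 2.05 times the HDL NP mean.

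**Figure D1:**
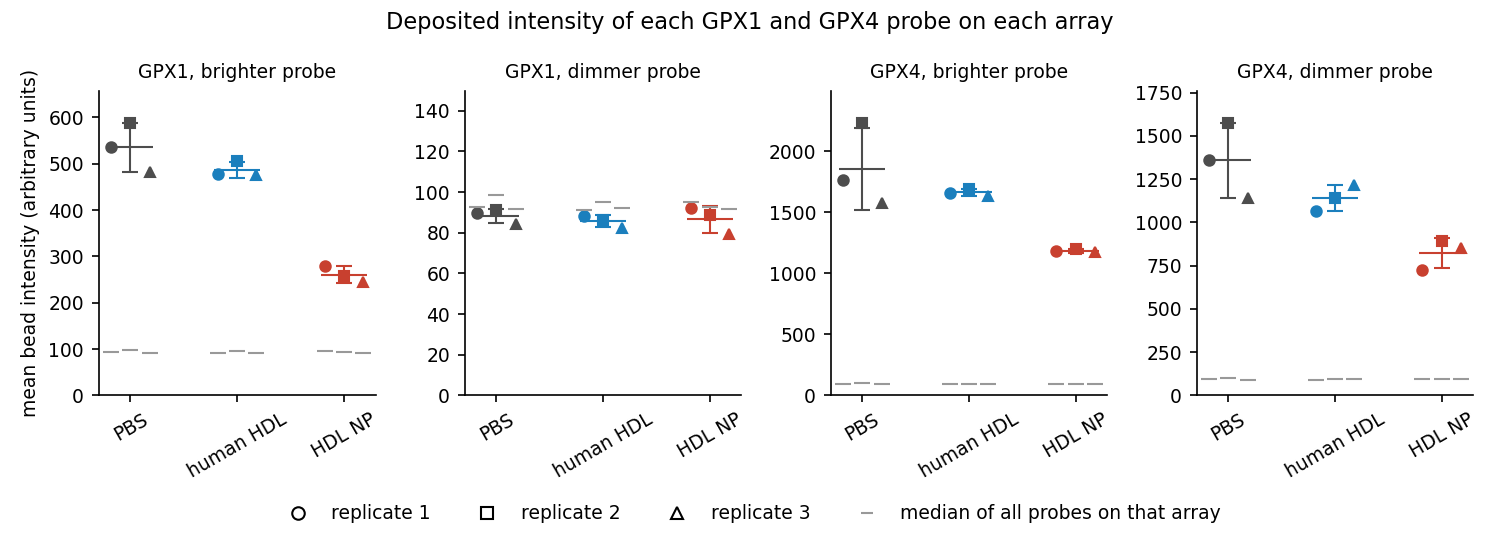
Deposited mean bead intensity (arbitrary units, vertical axes from 0) of the 4 probes of GPX1 and GPX4 by condition, with a symbol for each replicate, a line at the mean, bars of 1 SD (n = 3) and short grey lines at the median of all probes of that array. At the brighter GPX1 probe and at both GPX4 probes every HDL NP array lies below every PBS and human HDL array, and the dimmer GPX1 probe lies below the array median throughout.

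Intensities were then corrected for background, with the negative controls estimated from the detection p-values, normalized between arrays by quantiles and put on the log2 scale. There GPX1 was at 8.88, 8.76 and 8.87 on PBS replicates 1 to 3, at 8.74, 8.82 and 8.79 with human HDL, and at 7.13, 7.75 and 7.49 with HDL NPs. Groups of HDL NP and control arrays did not overlap, and HDL NP replicate 1 was the lowest of the 9. Relative to the PBS control GPX1 fell by 1.38 on the log2 scale (95% confidence interval −1.70 to −1.06, adjusted p = 0.0023 from limma with a standard error of 0.15), which is 2.60-fold. Of 10307 genes tested, 4 (0.0388%) were lower at an adjusted p under 0.05, and GPX1 was 1 of them, while GPX4 was not. GPX1 had the second lowest log2 fold change and the second smallest p of all genes in this comparison. RNA was taken from whole cultures, so less RNA per cell and fewer cells that carry it cannot be told apart.

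The other GPX1 probe, ILMN_1787412, gave no measurement of the gene. Its intensity lay between 79.2 and 92.1 on the 9 arrays, below the median of all probes of the same array (91.4 to 98.5) each time. Its detection p-value, the share of negative controls at least as bright, was 0.39 to 1.0, so it was above background on 0 of 9 arrays and has no fold change here. The change of GPX1 therefore rests on 1 probe, and agreement between probes could not be examined for this gene.

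GPX4 RNA was also lowest on the HDL NP arrays, by less than GPX1, and both of its probes were above background on all 9 arrays. The brighter probe, ILMN_2378952, had an intensity of 1760.5, 2228 and 1571 on PBS replicates 1 to 3. With human HDL it was 1659, 1692 and 1632, and with HDL NPs 1179, 1201 and 1172. HDL NP arrays lay below all 6 control arrays, while PBS spread widely enough to enclose the human HDL arrays. The intensity means were 1853 ± 338 (SD, n = 3) with PBS, 1661 ± 30.3 (SD, n = 3) with human HDL and 1184 ± 15.3 (SD, n = 3) with HDL NPs, and the PBS mean was 1.57 times the HDL NP mean.

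On the normalized log2 scale this GPX4 probe was at 10.69, 10.79 and 10.69 on the PBS arrays, at 10.68, 10.68 and 10.64 with human HDL, and at 9.77, 10.32 and 10.19 with HDL NPs. Again HDL NP replicate 1 was the lowest and no HDL NP array reached a control array. The log2 fold change relative to the PBS control was −0.63 (95% confidence interval −0.94 to −0.33, standard error 0.14), or 1.55-fold lower, and the adjusted p of 0.078 from limma over 10307 genes did not pass 0.05. The study took a fold over 1.5 with an unadjusted p under 0.05 as significant. GPX1 and GPX4 both met that rule (unadjusted p = 0.0007 for GPX4), as did 113 genes in all on the lower side (1.1%). By log2 fold change GPX4 was 131st from the lowest. Leaving out HDL NP replicate 1, GPX4 was at −0.47 (adjusted p = 0.075), and leaving out HDL NP replicate 2 it was at −0.75 (adjusted p = 0.040), so 1 array moved the call or the value in each direction. Without HDL NP replicate 1, as with array weights (−0.53), GPX4 was short of a fold of 1.5 and so did not meet that rule.

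Every HDL NP array was below every PBS array for 876 of the 10307 genes (8.5%), GPX1 and GPX4 among them. With 3 arrays against 3, the smallest p of an exact two-sided permutation test is 0.1, and both genes reached that value. The distance between the groups was wide for GPX1, whose highest HDL NP array lay 1.01 log2 units below the lowest PBS array, and 0.37 for the brighter GPX4 probe. The fold change of each gene is set against all genes in the plot of log2 fold changes.

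**Figure D2:**
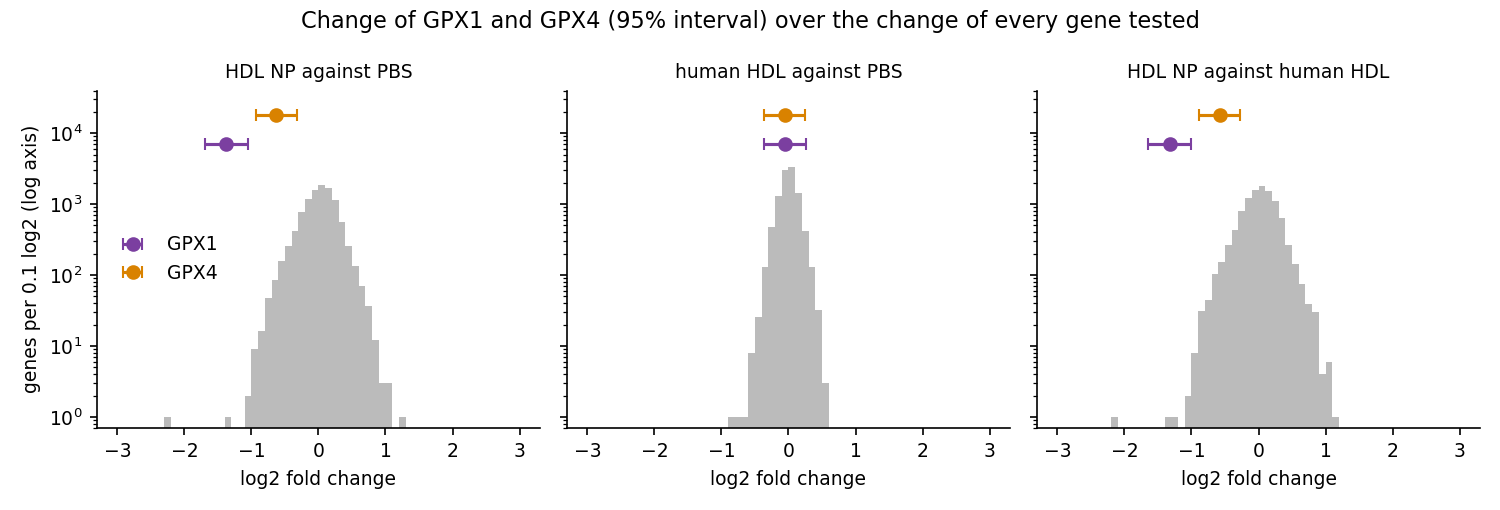
Log2 fold change of GPX1 and GPX4 in the 3 comparisons (points, with 95% confidence intervals) above the distribution of the log2 fold change of all 10307 genes tested (grey, genes per bin of 0.1 on a log axis). GPX1 at −1.38 and −1.33 lies at the far lower edge in both comparisons with HDL NPs and GPX4 at −0.63 and −0.57 on the lower shoulder, while both lie near 0 for human HDL against PBS.

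The probes of GPX4 gave changes of similar size. The dimmer probe, ILMN_1734353, had an intensity of 1361, 1574 and 1142 with PBS, of 1066, 1143 and 1215 with human HDL, and of 725, 893 and 854 with HDL NPs. All 3 HDL NP arrays were below the 6 control arrays here too. Its log2 fold change relative to the PBS control was −0.79 (95% confidence interval −1.24 to −0.34, standard error 0.21, adjusted p = 0.14 from limma over 18185 probes), or 1.73-fold lower. In the same fit over probes, the brighter GPX4 probe had an adjusted p of 0.11 and the GPX1 probe one of 0.0061. That call of GPX1 over probes was lost without PBS replicate 2 (adjusted p = 0.068) or 3 (adjusted p = 0.061). Without HDL NP replicate 1 the dimmer GPX4 probe was at −0.49. Of all 18185 probes, 3 (0.0165%) were lower at an adjusted p under 0.05, and 1 of the 3 measured probes of GPX1 and GPX4 was among them.

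The difference between the log2 values of the GPX4 probes, dimmer minus brighter, moved by −0.16 between PBS and HDL NPs (exact permutation p = 0.4, two-sided, n = 3), and the groups overlapped. Relative to the PBS mean this difference was −0.44 on HDL NP replicate 1, 0.02 on replicate 2 and −0.05 on replicate 3. The probes thus lay close together on replicates 2 and 3 and parted on replicate 1, where the dimmer probe lay further below its PBS level. Between human HDL and PBS the difference moved by −0.12 (exact permutation p = 0.3), and between HDL NPs and human HDL by −0.04 (exact permutation p = 0.9). These 3 tests form 1 family and none would pass a correction for it.

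The log2 difference from PBS was larger in size for GPX1 than for GPX4 on each HDL NP array. The log2 value of GPX1 minus that of GPX4, each at its brighter probe, was −1.82, −2.03 and −1.83 on PBS replicates 1 to 3. It was −1.94, −1.86 and −1.86 with human HDL and −2.64, −2.57 and −2.70 with HDL NPs. The 3 HDL NP arrays lay below all control arrays, whereas PBS and human HDL overlapped. Only the movement of this quantity has a meaning, since the brightness of different probes is not on a common scale. It moved by −0.75 between PBS (−1.89 ± 0.12, SD, n = 3) and HDL NPs (−2.64 ± 0.07, SD, n = 3), with an exact permutation p of 0.1, the smallest the design allows. Against human HDL (−1.88 ± 0.05, SD, n = 3) the movement was also −0.75 (exact permutation p = 0.1), and the HDL NP arrays are shared by both comparisons. Taken array by array relative to the PBS mean, the excess of GPX1 over GPX4 was −0.75, −0.68 and −0.81 on HDL NP replicates 1 to 3. In this difference the HDL NP arrays thus spread little at the brighter GPX4 probe. Each gene by itself spread by an SD of 0.31 and 0.28 on those arrays. At the dimmer GPX4 probe they were at −1.39, −0.39 and −0.59 from the PBS mean, against −1.70, −1.08 and −1.35 for GPX1. The distance was thus smaller on replicate 1 there. With a second deposited table, whose unit is unknown, replicate 1 had the dimmer GPX4 probe (−1.43) below GPX1 (−1.26), unlike replicates 2 and 3.

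Human HDL left both genes near the PBS control. GPX1 had a log2 fold change of −0.05 (95% confidence interval −0.37 to 0.27, adjusted p = 1.0 from limma). For GPX4 it was −0.06 (95% confidence interval −0.36 to 0.25, adjusted p = 1.0 from limma) at the brighter probe and −0.18 (95% confidence interval −0.63 to 0.28) at the dimmer one. None of these intervals reached the value of the same probe with HDL NPs, but at both GPX4 probes they overlapped its interval. In the direct comparison of HDL NPs with human HDL, given next, neither GPX4 probe passed the adjusted threshold. Both GPX4 probes had all 3 human HDL arrays below all 3 PBS arrays, but by gaps of 0.01 and 0.0030 log2 units, and GPX1 overlapped. Of all genes, 439 (4.26%) lay below PBS in this way. No gene was lower at an adjusted p under 0.05 (0 of 10307, or 0%), against 120 genes (1.16%) at an unadjusted p under 0.05 in limma, and the methods' t-test, named by the study for its experiments as a whole and not for the arrays, called 0 genes as well after adjustment and 3 by the study's rule, against 4 in limma.

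Against human HDL, given at the same dose, HDL NP treatment gave nearly the same values as against PBS. GPX1 fell by 1.33 on the log2 scale (95% confidence interval −1.65 to −1.01, adjusted p = 0.0032 from limma), or 2.51-fold. GPX4 was at −0.57 (95% confidence interval −0.88 to −0.27, adjusted p = 0.097 from limma), or 1.49-fold lower, which is short of the fold of the study's rule. Its dimmer probe was at −0.61, or 1.53-fold lower (adjusted p = 0.24 over probes, where 4 of 18185, or 0.022%, were lower at an adjusted p under 0.05), but at −0.31 without HDL NP replicate 1 and at −0.06 with the second deposited table, whose unit is unknown. Over probes, GPX1 had an adjusted p of 0.0084, and of 0.075, 0.065 and 0.056 without human HDL replicate 1, 2 or 3. GPX1 was 1 of 4 genes (0.0388%) lower at an adjusted p under 0.05 and 1 of 139 (1.35%) lower by the study's rule. Every HDL NP array was below every human HDL array for GPX1 and GPX4, as for 1036 genes in all (10.1%).

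The HDL NP arrays spread less before normalization between arrays than after it. Whether that step added spread or removed a difference in brightness between arrays was not tested. With no normalization their SD was 0.13 for GPX1 and 0.18 for the dimmer GPX4 probe, against 0.31 and 0.53 after quantile normalization. As deposited, the 3 HDL NP arrays were close together, within 1172 to 1201 at the brighter GPX4 probe. With background correction but no normalization, this probe was −0.67, −0.64 and −0.68 from the PBS mean on HDL NP replicates 1 to 3, and the SD of those arrays was 0.02. With median scaling the same arrays were at −1.15, −0.49 and −0.67, with an SD of 0.34. After quantile normalization they were at −0.95, −0.41 and −0.54, with an SD of 0.28. PBS moved the other way, from an SD of 0.27 without normalization to 0.06 with quantile normalization. GPX1 went from −1.16, −1.32 and −1.42 without normalization to −1.70, −1.08 and −1.35 with it, so that HDL NP replicate 1 turned from the mildest to the strongest change. The dimmer GPX4 probe went from −0.97, −0.63 and −0.70 to −1.39, −0.39 and −0.59, with replicate 1 lowest in both.

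**Figure D3:**
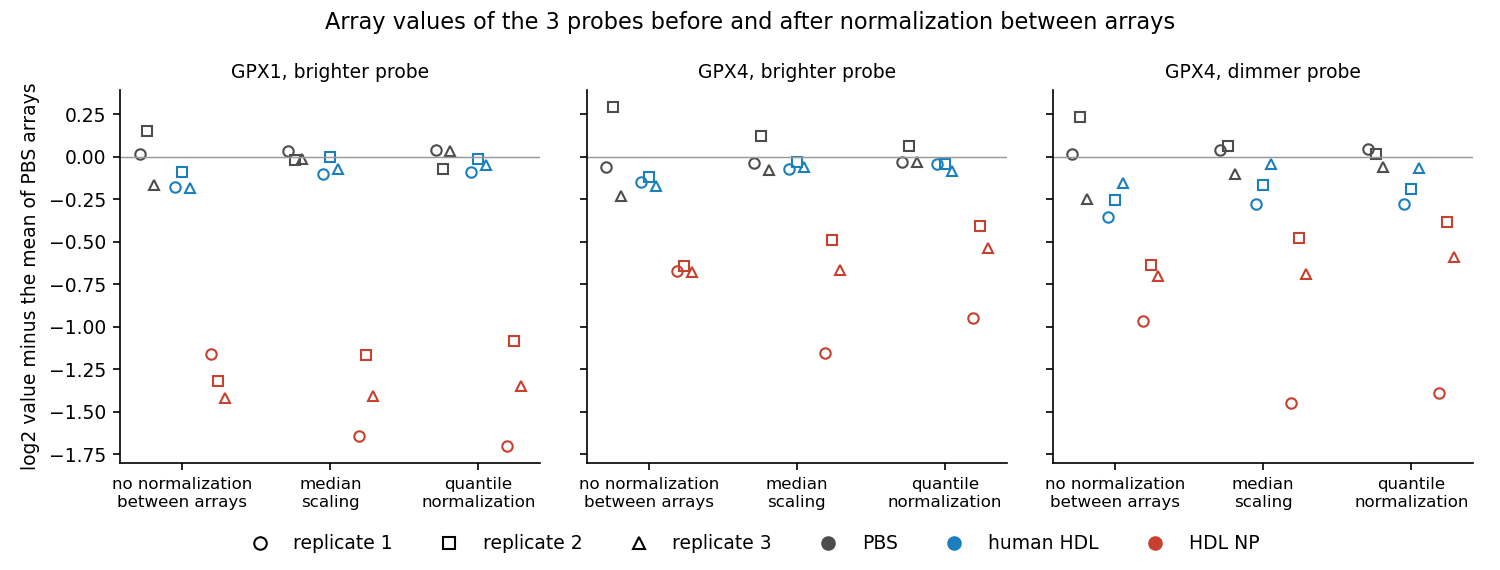
Log2 value minus the mean of the PBS arrays for the 3 measured probes, with background correction and no normalization between arrays, with median scaling, or with quantile normalization. Colors give the condition and symbols the replicate. At the brighter GPX4 probe the HDL NP arrays lie within 0.04 of each other without normalization. They lie 0.66 apart with median scaling and 0.54 apart after quantile normalization.

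HDL NP replicate 1 was the brightest array over the 18185 kept probes, by median and upper quartile. Over all 47323 probes PBS replicate 2 was brighter, with a mean intensity of 278 against 261. The median intensity of the kept probes was 159.9 on HDL NP replicate 1 and 128 to 147 on the other arrays. The upper quartile was 398 against 268 to 339. Against the mean of the human HDL arrays, 591 genes differed by 1 log2 unit or more on this array, 6 and 9 on HDL NP replicates 2 and 3, and 0 to 2 on each control array. Nuclear subunits of the respiratory chain had a median change from the PBS mean of −1.07 there, and −0.02 and −0.10 on HDL NP replicates 2 and 3. Ribosomal proteins had −0.48, −0.01 and −0.02, and 8 housekeeping genes 0.41, 0.01 and −0.04. GPX1 and GPX4 were low on replicates 2 and 3, where the medians of those lists were near the PBS level. Without replicate 1, GPX1 was at −1.22 (adjusted p = 0.0015 from limma). The part of this array's brightness in the values of either gene was not tested.

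Genes that work beside GPX1 and GPX4 were next examined, to see whether other steps of peroxide removal moved in the same arrays. Of the other 6 glutathione peroxidases, GPX2, GPX3, GPX5 and GPX6 were above background on 0 arrays and GPX8 on 1. GPX7, which resides in the endoplasmic reticulum, was the only one measured. Its log2 fold change was −0.28 with HDL NPs (adjusted p = 0.37 from limma) and 0.17 with human HDL, both relative to the PBS control. Its HDL NP arrays were at −0.40, −0.12 and −0.33 relative to the PBS mean.

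Of 14 listed enzymes that remove peroxide or superoxide by other means, 12 were measured, and 0 passed the adjusted threshold in any of the 3 comparisons. Over all genes, 38 (0.369%) were higher with HDL NPs than with PBS and 57 (0.553%) higher than with human HDL at that threshold. Their median log2 fold change with HDL NPs was −0.09, against 0.03 over all genes, and 8 of 12 were negative. The lowest was TXN2, mitochondrial thioredoxin, at −0.30, and the highest was TXNRD1, cytosolic thioredoxin reductase and itself a selenoprotein, at 0.24. Catalase (CAT) was at −0.21, and at −0.24 with human HDL. PRDX1, the main cytosolic peroxiredoxin, was at 0.09, with 0.08, 0.09 and 0.08 on the HDL NP arrays. PRDX3, the mitochondrial peroxiredoxin, was at 0.70, −0.28 and −0.33 on HDL NP replicates 1 to 3, and TXN, cytosolic thioredoxin, at −0.92, 0.12 and 0.13, so replicate 1 stood against the others in opposite directions for these genes.

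Glutathione itself is made from cysteine, glutamate and glycine and kept reduced by NADPH. Of 10 listed genes of this supply 8 were measured, 0 passed the threshold, and their median was 0.13. SLC3A2, the heavy chain of the cystine importer, was highest at 0.52 (adjusted p = 0.17), and IDH1, a cytosolic source of NADPH, was at 0.50 (adjusted p = 0.19). GSS, glutathione synthetase, was lowest at −0.27 (adjusted p = 0.29). GCLC and GCLM, the subunits of the ligase that sets the rate of glutathione synthesis, were at 0.01 and 0.25. GSR, the reductase that returns oxidized glutathione to its reduced form, was at −0.09. The importer's light chain, SLC7A11, was above background on 0 arrays.

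All 10 listed genes of selenocysteine synthesis and insertion were measured, 0 passed the threshold and the median was 0.07. SECISBP2, which binds the hairpin of selenoprotein messages, was at 0.07, and EEFSEC, the elongation factor that delivers selenocysteine, at 0.02. SEPHS2, which makes the selenium donor, was at 0.22, with 0.72, −0.12 and 0.05 on HDL NP replicates 1 to 3. RPL30, a ribosomal protein that also binds the hairpin, was lowest at −0.31 (adjusted p = 0.44), with −0.86 on replicate 1 and −0.06 and 0.00 on the others.

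**Figure D4:**
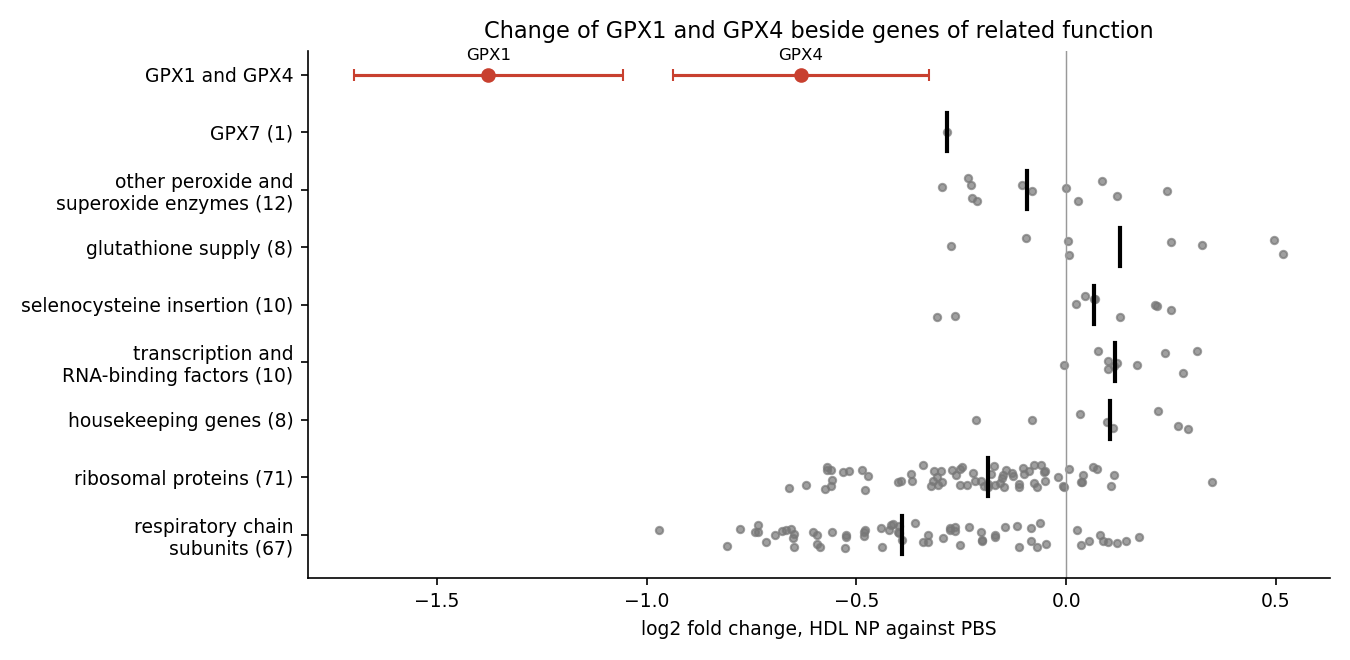
Log2 fold change, HDL NP against PBS, of GPX1 and GPX4 (red, with 95% confidence intervals) and of each measured gene of the lists (grey points, number measured in parentheses, black bar at the median). GPX1 lies below every listed gene, and GPX4 at −0.63 lies below all genes of the first 6 lists and among the lowest ribosomal protein and respiratory chain genes.

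The transcription and RNA-binding factors linked to GPX1 or GPX4 in the paper or in general knowledge did not pass the threshold either. Of all 10307 genes only 4 (0.0388%) were lower and 38 (0.369%) higher than with PBS at that threshold. A count of 0 in this list or the short lists before it thus does not set them apart from other genes. Of 11 listed, 10 were measured, and the median was 0.12 with a range of −0.0046 (SP1) to 0.31 (NFE2L2). SREBF1, the gene of the sterol-sensing factor SREBP-1, was at 0.24 (adjusted p = 0.41), with 0.29, 0.21 and 0.21 on the 3 HDL NP arrays. NFKB1 and RELA, subunits of NF-κB, were at 0.17 and 0.10. NFYA, NFYB and NFYC, subunits of the factor that binds the CCAAT box, were at 0.08, 0.12 and 0.10, and SP3, which binds the GC box as SP1 does, at 0.28. GRSF1, an RNA-binding protein reported to act on GPX4 messages in mouse, was at 0.11. RNA level says nothing about the activity of these factors.

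Lower values of moderate size were frequent in 2 large lists. Of 71 measured ribosomal protein genes, 62 had a negative log2 fold change with HDL NPs and the median was −0.19, with 1 gene past the study's rule, which 1.1% of all genes met on the lower side. Of 67 measured respiratory chain genes, 58 were negative, the median was −0.39, and 7 passed the study's rule. These medians rested on HDL NP replicate 1 (−0.48 and −1.07), since the lists were at −0.01 and −0.02 on replicate 2 and at −0.02 and −0.10 on replicate 3. Over all genes 44% were negative. None of these genes passed the adjusted threshold in limma. With human HDL the medians were 0.01 and 0.03. GPX4 at −0.63 lay within the range of both lists (down to −0.66 and −0.97), and GPX1 lay below both. GPX4 itself was at −0.41 and −0.54 on replicates 2 and 3.

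Of the genes next to GPX1 and GPX4 on the chromosome, 0 of 4 passed the adjusted threshold, as with nearly all genes (4 lower and 38 higher of 10307 passed). In the RefSeq gene table RHOA, a small GTPase of the cytoskeleton, is the nearest gene to GPX1 and was at 0.16 with HDL NPs (adjusted p = 0.74 from limma). It was at 0.75 on HDL NP replicate 1 and at −0.20 and −0.09 on the others. USP4, a deubiquitinase on the other side, was at −0.30 (adjusted p = 0.28). Its HDL NP arrays were at −0.27, −0.36 and −0.25 relative to the PBS mean, below all 6 control arrays, of which the lowest was at −0.14. Of all genes, 8.5% lay below every PBS array in this way and 10.1% below every human HDL array. Beside GPX4, SBNO2 was at −0.21 (adjusted p = 0.42), with −0.11, −0.18 and −0.34 on the HDL NP arrays, and POLR2E, a subunit shared by the RNA polymerases, at 0.12 (adjusted p = 0.78). No other gene of that table overlaps GPX1 or GPX4.

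The genes most like GPX1 over the 9 arrays, by Pearson's r of log2 values among 10306 genes, were TMEM177 (0.98), RPUSD3 (0.98), ATG101 (0.98), IMPA2 (0.98) and RHPN2 (0.98). Their log2 fold changes with HDL NPs were −0.25 to −0.43, much smaller than that of GPX1, with adjusted p between 0.11 and 0.30. Those most like GPX4 were TMEM134 (0.99), PRR7 (0.99), DCPS (0.98), CUEDC2 (0.98) and SDHAF1 (0.98), with log2 fold changes of −0.32 to −0.59 and adjusted p between 0.10 and 0.28. GPX4 was the 15th gene most like GPX1 (r = 0.97), and GPX1 the 22nd most like GPX4. These coefficients are a description, since all points share the same arrays and 3 conditions and r compares shape and not size.

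The arrays as a whole had 33.9% to 38.1% of 47323 probes above background at a detection p under 0.05. The mean absolute deviation from the condition's own mean was 0.13 to 0.22 log2 units over genes on HDL NP arrays and 0.10 to 0.11 on control arrays, so the shared standard error may be too small for HDL NP comparisons. Of 10 listed B cell markers 8 were above background on all arrays, among them MS4A1, CD79A and CD79B, while PAX5 was on 0 arrays. Of 6 T cell markers, CD3E, CD3G and CD4 were on 0 arrays, CD3D on 1, CD8A on 2 and CD2 on 4. Of 6 myeloid markers, CD14 was on 8 arrays, LYZ on 7, CSF1R on 2, MPO on 1 and ITGAM on 0, CD33 had no probe under that symbol, and the mean level of the kept myeloid markers was 4.58 to 4.85 with PBS, 4.69 to 5.14 with human HDL and 4.69 to 4.95 with HDL NPs on the log2 scale. That of the B cell markers was 8.39 to 8.40 with PBS, 8.37 to 8.43 with human HDL and 8.50 to 8.74 with HDL NPs, and the part of these levels in the values of GPX1 and GPX4 was not tested.

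GPX1 and GPX4 kept a negative log2 fold change between HDL NPs and PBS under all 22 other settings tried. Some of these settings could not move the fold change and bear only on the p. They were the filters, the replicate block, only the groups compared, the methods' t-test and the omission of a human HDL array. GPX1 stayed at −1.38 and GPX4 at −0.63 there, and the mean of kept probes could not move GPX1 either. Over the 22 settings, GPX1 ranged from −1.54 to −1.08 and GPX4 from −0.80 to −0.47. GPX1 passed the adjusted threshold under 19 of the 22. It did not pass with the second deposited table (adjusted p = 0.35), after centring on housekeeping genes (adjusted p = 0.12) or in the methods' t-test (adjusted p = 0.34). The second table is counted among the 22 but may not measure expression. GPX4 passed under 4, namely no background correction (adjusted p = 0.044), an offset of 50 (adjusted p = 0.041), array weights (adjusted p = 0.0051) and without HDL NP replicate 2.

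**Figure D5:**
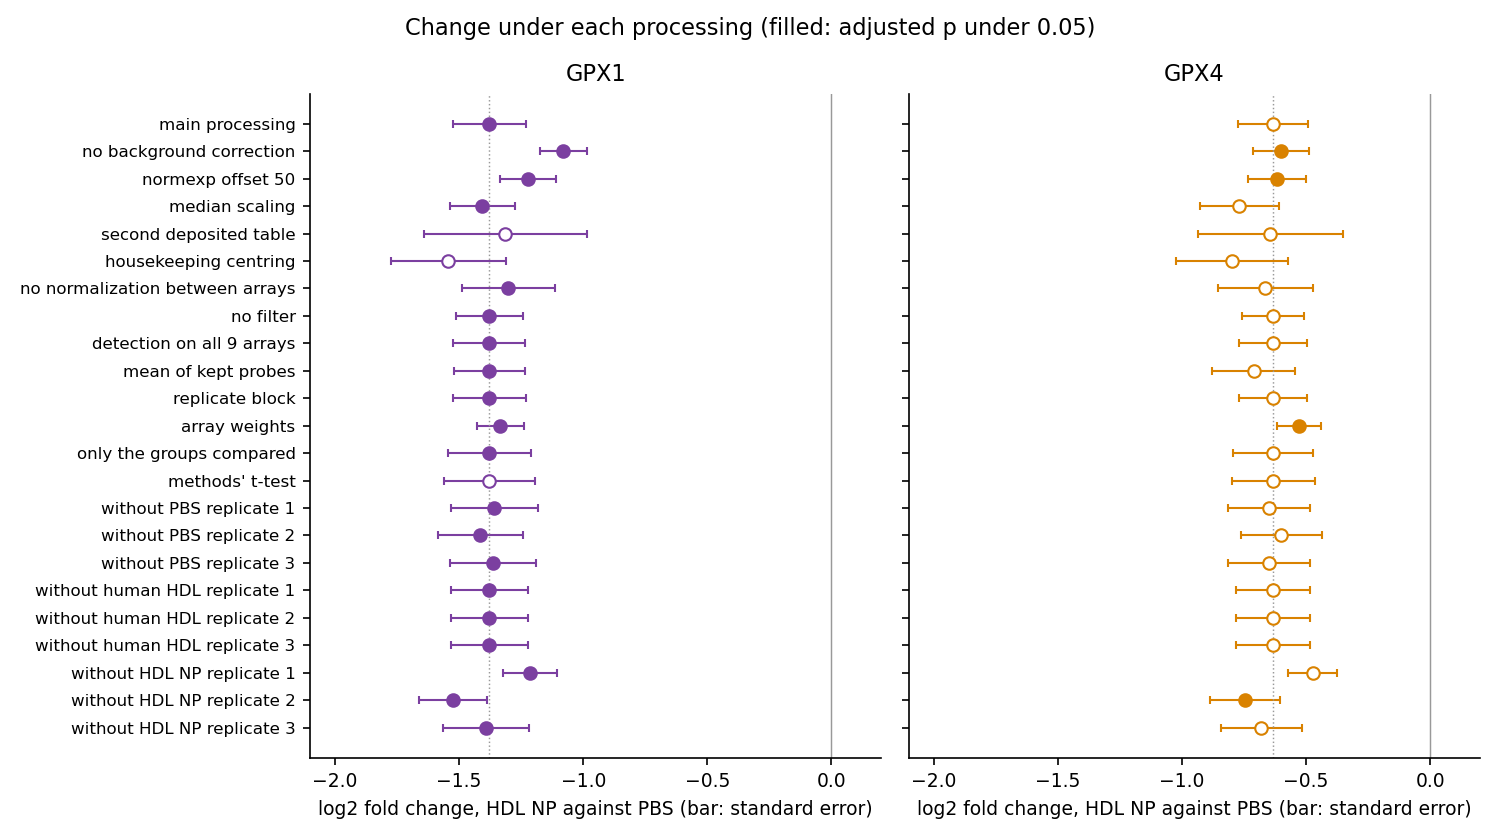
Log2 fold change of GPX1 and GPX4, HDL NP against PBS, under the main processing and 22 others (points, with bars of 1 standard error; filled where the adjusted p was under 0.05). GPX1 stays between −1.54 and −1.08 and GPX4 between −0.80 and −0.47, and the filled points of GPX4 are 4.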

How the data were processed

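The authors deposited the mean bead intensity of 47323 probes on 9 Illumina HT-12 arrays, without background subtraction or normalization, and the deposited detection p-value of each. A second deposited table gives a signal whose unit, scale and centring are not stated, with column medians of 2.97 to 3.44, and it served only as an alternative. Those medians were 3.21% to 3.49% of the median intensity of the same array. At the 3 measured probes of GPX1 and GPX4 its values were 2.63% to 7.87% of the intensity. The second table may therefore not measure expression, which was not tested. The scanner software and any array normalization by the authors are not given in the sources used here.

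With limma 3.58.1 in R 4.3.3, neqc corrected the background (normexp, offset 16), normalized by quantiles and took log2. Probes with a detection p under 0.05 on at least 3 arrays passed the filter (18185), and the brightest of these stood for its gene (10307 genes with 1 symbol). Of all probes 30113 carried 1 symbol, 8 several and 17202 none, and 30074 matched the GRCh38.p14 gene table by gene ID. All 9 arrays were fitted together with lmFit and eBayes, condition being the only term (12.3 degrees of freedom), with Benjamini-Hochberg adjustment over all genes or probes. Differences between probes were tested by exact permutation over arrays. Promoter windows came from RefSeq. The script was tested on simulated data. The number of arrays limits the precision.

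Genes named are GPX1 and GPX4, the measured members of the lists, the nearest gene on each side and the 5 genes with the highest correlation for each. Members and lists were chosen with earlier results of these data known. Alternatives covered background, normalization, probe choice, filter, model and the omission of each array.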

Additional observations from a re-analysis of the deposited data

How the results depend on the processing

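Between human HDL and PBS, GPX1 kept its sign and stayed short of the threshold under all 22 alternatives. GPX4 did so under 21, with the second deposited table giving 0.071. The filters, the replicate block and the methods' t-test could not move the fold change here. Nor could fitting only the groups compared or omitting an HDL NP array. Between HDL NPs and PBS, GPX4 passed the threshold at −0.60 with no background correction, −0.62 with an offset of 50 and −0.53 with array weights. GPX1 did not pass with the second table (−1.31), housekeeping centring (−1.54) or the methods' t-test (−1.38). Against human HDL, GPX1 did not pass with the second table (−1.01), housekeeping centring (−1.46), the methods' t-test (−1.33) or no normalization between arrays (−1.15), an alternative chosen after the data were seen, and GPX4 passed with array weights (−0.48). The cause was not tested. Without single arrays, GPX1 ranged from −1.53 to −1.22 against PBS and from −1.47 to −1.16 against human HDL, and GPX4 from −0.75 to −0.47 and from −0.69 to −0.42, passing against human HDL without HDL NP replicate 2 (adjusted p = 0.035 from limma). Human HDL against PBS ranged from −0.09 to −0.03 for GPX1 and from −0.07 to −0.03 for GPX4.

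The difference in change between GPX1 and GPX4, each at its brighter probe, was −0.81 to −0.48 between HDL NPs and PBS. Between HDL NPs and human HDL it was −0.79 to −0.29. Between human HDL and PBS, where it was 0.01, it turned to −0.0047 with median scaling and with no normalization between arrays, to −0.38 with the second table, and ranged from −0.063 to 0.043 without single arrays. The difference between the GPX4 probes, −0.04 between HDL NPs and human HDL, turned to 0.0014 with median scaling and with no normalization between arrays, to 0.65 with the second table, and ranged from −0.13 to 0.10 without single arrays. Between HDL NPs and PBS, where it was −0.16, it was −0.016 without HDL NP replicate 1 and −0.25 without replicate 2, and between human HDL and PBS it went from −0.12 to −0.80 with the second table.

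The number of genes lower at the adjusted threshold, 4 against PBS and 4 against human HDL, was less steady than the values of GPX1 and GPX4. It was 25 and 19 with no background correction, 21 and 12 with an offset of 50, 0 and 0 with the second table, 1 and 1 with housekeeping centring, 2 and 1 with no normalization between arrays, 330 and 448 with array weights, 2 and 2 with only the groups compared, and 1 and 0 in the methods' t-test. Against human HDL it was 2 with median scaling and 7 with no filter. Without single arrays it ranged from 2 to 32 (without HDL NP replicate 2) against PBS and from 2 to 57 (without HDL NP replicate 2) against human HDL, and it was 8 against human HDL without HDL NP replicate 1. By the study's rule, the counts of 113 and 139 became 19 and 26 with no background correction, 46 and 60 with an offset of 50, 196 and 240 with median scaling, 339 and 303 with the second table, 71 and 92 with no filter, 37 and 39 with array weights, 71 and 82 with only the groups compared, and 20 and 16 in the methods' t-test. With housekeeping centring 239 genes were lower than PBS. Without single arrays these counts ranged from 21 (HDL NP replicate 1) to 447 (HDL NP replicate 2) and from 13 (HDL NP replicate 1) to 470 (HDL NP replicate 2). For human HDL against PBS the count of 4 became 1 with no background correction, 2 with an offset of 50, with median scaling and with the mean of kept probes, and 228 with the second table, and ranged from 2 to 11 without single arrays.

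Centring moved the median of all genes between HDL NPs and PBS from 0.03 to −0.13 with housekeeping genes and to 0.09 with no normalization between arrays, and against human HDL from 0.03 to −0.10 and 0.15. Relative to that median, GPX1 was at −1.41 and GPX4 at −0.67 with housekeeping centring, and at −1.39 and −0.75 with no normalization. Housekeeping centring shifts all genes of an array alike, so its values equal those of the main processing by construction. Those with no normalization equal those of median scaling for the same reason. Calls between HDL NPs and PBS were 38 higher and 4 lower, and became 86 and 25 with no background correction, 3 and 3 with median scaling, 1 and 1 with housekeeping centring, and 0 and 2 with no normalization.

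Same-numbered arrays deviated together with a correlation of −0.08 to 0.17 over genes. Between HDL NPs and human HDL it was 0.12, 0.06 and 0.17 on replicates 1 to 3, above that with other numbers (at most 0.0048). In the other comparisons it was higher on some replicates and lower on others. The study names no pairing, and the numbers were not taken to pair samples in the main fit. With the replicate number as a block, GPX1 was at −1.38 (adjusted p = 0.0060 from limma) and GPX4 at −0.63 (adjusted p = 0.088), with no call of either gene changed. Genes lower than PBS went from 4 to 3, and by the study's rule from 113 to 140 against PBS and from 139 to 178 against human HDL. Of the limits, GPX1 rests on 1 probe and each condition on 3 arrays.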

Other observations

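Genes often used as references did not move together with HDL NP treatment. Relative to the PBS control on the normalized log2 scale, ACTB (beta-actin) was at 0.29, GUSB (beta-glucuronidase) at 0.27, YWHAZ (a 14-3-3 protein) at 0.22, GAPDH (a glycolytic enzyme) at 0.10, TBP (the TATA-binding protein) at 0.03, B2M (the light chain of class I molecules) at −0.08 and PPIA (cyclophilin A) at −0.22, and 0 of the 8 measured passed the adjusted threshold in limma. On HDL NP replicate 1, ACTB was at 0.64 and GUSB at 0.66, while PPIA was at 0.16 there and at −0.40 and −0.41 on replicates 2 and 3. On replicates 2 and 3 both ACTB (0.12 and 0.11) and GAPDH (0.00 and −0.05) lay near PBS, where GPX1 was at −1.08 and −1.35. PPIA on those arrays lay close to GPX4, which was at −0.41 and −0.54.

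Of the other annotated starts of GPX4, the second has a window (chr19:1103807-1104056) that overlaps the printed one (chr19:1103744-1103993). The GC box and the CCAAT boxes of the printed window fall in the shared part and are counted again. The window of the third start (chr19:1104400-1104649) is separate. In the 250 bases before the second start, 1 GC box and 3 CCAAT boxes were found, and before the third 4 GC boxes and 0 CCAAT boxes, with 0 E-boxes in both. The files used here do not assign the GPX4 probes to a start.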
